A study of Mus musculus with 6 samples.

Results

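Angiogenin (Ang), Rnase4 and the ribonuclease inhibitor (Rnh1) were followed in mouse livers that carried a floxed Srf gene on both chromosomes or on 1, through every probe set whose annotated gene symbols all belonged to these 3 genes. They are 3 of the 18193 genes that had a probe set of their own (1 annotated symbol), and the array held 5 such probe sets among 45101: 3 for Ang (1438936_s_at, 1450717_at and 1438937_x_at), 1 for Rnase4 (1422603_at) and 1 for Rnh1 (1451201_s_at). No probe set was annotated to Ang and Rnase4 together. The genes were chosen by measured values of this same contrast, the low signal of 1438936_s_at in mutants, so their mutant and control values are given below as a description, without a test.

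The mutants were 3 male mice aged 3 weeks with the genotype Srf loxP/loxP AlfpCre, and the liver tissue taken lacked Srf according to the design text. The controls were 3 male mice of the same age with the genotype Srf loxP/+ AlfpCre. Both groups therefore carried the Cre transgene and at least 1 loxP-flanked copy of Srf, and a liver with the unmodified gene was not part of the comparison. AlfpCre expresses Cre recombinase from albumin and alpha-fetoprotein control elements, which are active in hepatocytes. Each mouse gave 1 array. The comparison asks how transcripts of these genes differ in liver when both copies of Srf are targeted and not only 1.

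Angiogenin and Rnase4 are small secreted enzymes of the ribonuclease A superfamily, and liver is a major source of angiogenin in blood. Angiogenin cuts transfer RNAs in stressed cells, is taken into the nucleus where it favours the making of ribosomal RNA, and induces blood vessel growth. Rnh1 is a leucine-rich repeat protein of the cytosol that binds enzymes of this superfamily very tightly and blocks them. In the mouse, Ang and Rnase4 share their upstream exons, which are spliced to a separate coding exon for each enzyme.

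The shared origin is visible in the RefSeq promoter windows (build GRCm38.p6), which listed all 3 genes. The only window of Ang and the upstream of 2 windows of Rnase4 were the same stretch. Of 32817 different windows in that table, 34 (0.104%) were listed for more than 1 gene. The 250 bases before both starts are shown because the readings of Ang and Rnase4 below differ although they can begin at the same base, and the downstream Rnase4 window because it is not listed for Ang. The first lies at chr14:51090827-51091076 and the second at chr14:51095750-51095999, both on the plus strand, with 4923 bases between the starts. Capitals mark the letters of the only motif match found in these stretches.
Ang and Rnase4, shared start: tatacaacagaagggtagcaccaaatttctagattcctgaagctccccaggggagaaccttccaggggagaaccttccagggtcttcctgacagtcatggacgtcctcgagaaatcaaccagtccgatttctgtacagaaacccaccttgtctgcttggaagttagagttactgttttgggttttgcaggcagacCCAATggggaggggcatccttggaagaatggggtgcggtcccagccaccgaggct
Rnase4, downstream start: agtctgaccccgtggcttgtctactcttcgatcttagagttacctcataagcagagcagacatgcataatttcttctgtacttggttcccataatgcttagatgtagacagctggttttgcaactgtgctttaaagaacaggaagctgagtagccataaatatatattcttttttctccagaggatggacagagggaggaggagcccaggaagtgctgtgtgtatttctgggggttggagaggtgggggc

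The windows were searched on both strands for the CArG box, the motif that SRF binds, for GTTAAT (a site of HNF1 factors, which act in liver), for the TATA box as TATAAA, for the CCAAT box by those letters, for the GC box as GGGCGG, and for the E-box as CACGTG. Overlaps between different motifs were allowed. In the shared window CCAAT matched once, 51 to 55 bases before the start, and the other motifs had no match. The downstream Rnase4 window held none of the 6. Over all windows of this length, 33.8% held the CCAAT box, 1.47% the CArG box, 6.44% the HNF1 site, 12.4% the TATA box, 32.7% the GC box and 6.02% the E-box. None of the 3 Rnh1 windows held the CArG box. One of them held the GC box at 3 places, another the TATA box and the third the E-box. These are matches of letters and not binding sites. In RefSeq gene order, 4 transfer RNA genes stand directly upstream of the shared start on chromosome 14, and Rnh1 lies on chromosome 7.

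Array quality and labels bear on all values that follow. The deposited signals had trimmed means of 37.3 to 58.1 on mutant arrays and 55.2 to 69.9 on control arrays, so arrays were scaled to a common trimmed mean before log2 was taken. The brighter Srf probe set (1418256_at) read 4.17, 5.24 and 2.54 on mutant arrays 1 to 3 and 5.31, 5.14 and 5.11 on control arrays 1 to 3 (log2 intensity). On it mutant 2 lay among the controls. The dimmer Srf probe set (1418255_s_at), close to background, read 3.29, 0 and 1.99 on mutant arrays 1 to 3 and 3.0, 3.69 and 3.37 on control arrays 1 to 3, and there mutant 2 was the lowest array, at the floor. The labels do not say whether either set lies in the deleted stretch, so Srf does not settle how the library labelled mutant 2 compares with its label. Without it the log2 differences were -2.54 for 1438936_s_at, 0.98 for 1450717_at, -0.42 for 1438937_x_at, 0.65 for Rnase4 and -0.53 for Rnh1. Of 10 hepatocyte markers, 8 had a probe set, and their summed scaled signal was 49720.3 to 62512.8 in mutants and 39653.6 to 44871.8 in controls. None of these 8 passed the test in limma (adjusted p under 0.05 over all probe sets kept), while 3 were higher at an unadjusted p under 0.05, beside 7.6% of all probe sets kept. Of the 8, 7 had a positive log2 difference, with 0.40 for albumin (Alb). Apob went the other way, with -0.33. Summed signals of 5 cholangiocyte markers were 42.8 to 65.3 in mutants and 36.3 to 40.2 in controls, those of 4 B cell markers 30.7 to 39.3 in mutants and 46.5 to 48.8 in controls, and those of 5 pancreatic acinar markers 129.4 to 224.6 in mutants and 285.7 to 520.9 in controls. Of the cholangiocyte genes Cftr was below background in both groups, and Krt7 and Sox9 were in controls. Of the B cell genes Cd79a, Cd79b and Ms4a1 were below background in mutants, and Ighm went the other way, with a log2 difference of 0.24. Of the acinar genes Cpa1, Ctrb1 and Ptf1a were below background in both groups, and the measured elastases went opposite ways, with log2 differences of -1.96 for Cela1 and 1.98 for Cela2a. The summed stellate cell markers were 265.6, 2035.1 and 653.9 on mutant arrays 1 to 3 and 1744.3 to 1946.3 in controls, so they overlapped through mutant 2 alone. Of those 7 genes 5 had a negative and 2 a positive log2 difference, with a median of -1.15. They ranged from -3.56 for the collagen gene Col3a1 to 0.75 for Des. The sums of the 7 other marker lists overlapped between groups. For Kupffer cell, endothelial, T and NK cell and erythroid markers, mutants 1 and 3 again lay below all controls and mutant 2 did not. Kupffer cell sums were 896, 1539.8 and 1002.3 on mutant arrays 1 to 3 and 1374 to 1995.3 in controls. Erythroid sums were 18.1, 364.4 and 46.3 on mutant arrays and 248.7 to 486.1 in controls. The neutrophil, eosinophil and Paneth cell sums did not show this pattern. The part of these shifts in the results below was not tested. In whole liver, fewer cells of a type and less RNA per cell cannot be told apart.

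The 3 probe sets of Ang did not give the same answer. Probe set 1438936_s_at was far lower in mutants, 1450717_at was higher in mutants, and the groups overlapped on 1438937_x_at. The suffix _s_at marks a probe set whose probes match several transcripts, and _x_at one in which some probes match other sequences as well. The deposited annotation links 1450717_at to the reference mRNA of Ang and gives no accession for the other two.

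**Figure D1:**
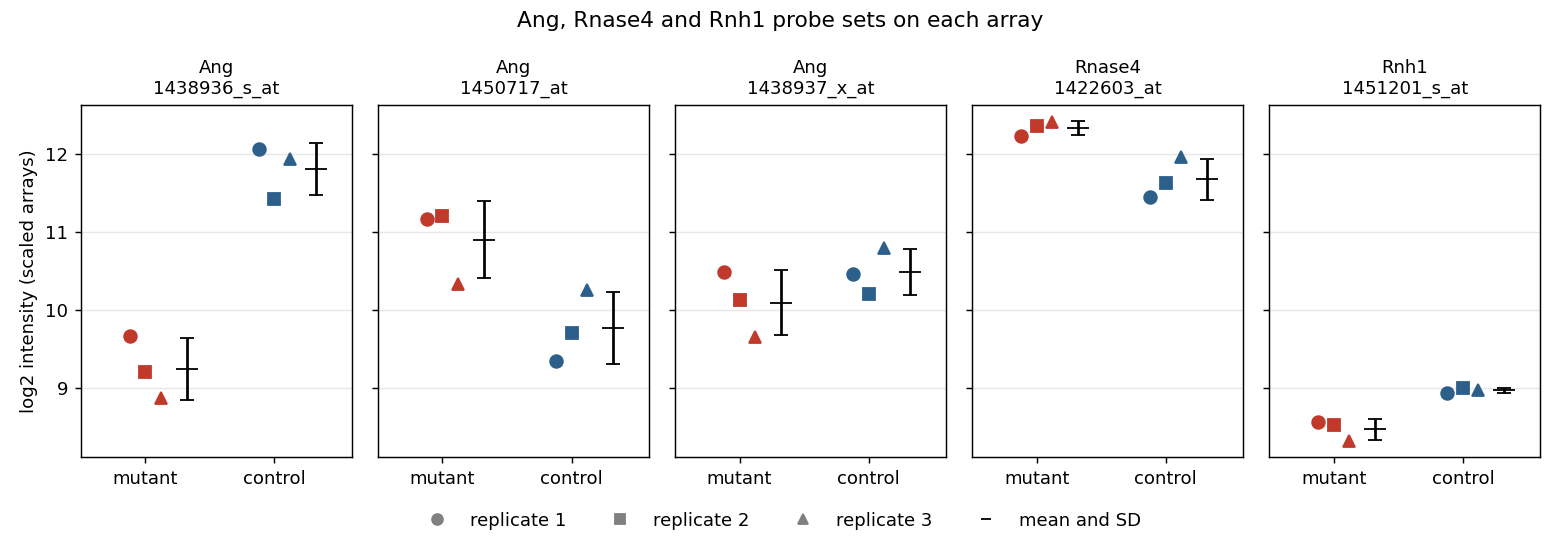
Log2 intensity (y axis, arrays scaled to a common trimmed mean) of the 5 probe sets in mutant livers (red, left of each panel) and control livers (blue, right), with a marker for each replicate and a bar for mean and SD (n = 3). Mutant arrays sit below all controls on 1438936_s_at and Rnh1 and, after this scaling, above all controls on 1450717_at and Rnase4, while on 1438937_x_at mutant 1 lies among the controls and the other mutants below them.

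Probe set 1438936_s_at read 9.66, 9.20 and 8.87 on mutant arrays 1 to 3, against 12.06, 11.43 and 11.94 on control arrays 1 to 3. The groups were far apart, with the highest mutant well below the lowest control. The means were 9.24 ± 0.40 in mutants and 11.81 ± 0.34 in controls (SD, n = 3), a log2 difference of -2.56 (SE 0.28), or 5.92-fold lower in mutants. Of the 27022 probe sets kept, 1.02% had a lower difference, a place that follows from the choice of the genes by this low signal. On the linear scale its scaled signal averaged 623 ± 175 in mutants and 3653 ± 799 in controls (SD, n = 3).

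Probe set 1450717_at read 11.17, 11.20 and 10.33 in mutants, against 9.34, 9.70 and 10.25 in controls. After rescaling the mutants were higher without overlap, but mutant 3 and control 3 nearly touched. The deposited signals, before rescaling, were 1589, 2541 and 1012 in mutants and 663, 1080 and 1376 in controls, and those overlapped. The means were 10.90 ± 0.50 in mutants and 9.77 ± 0.46 in controls (SD, n = 3), a log2 difference of 1.13 (SE 0.33), or 2.20-fold higher in mutants. Of the probe sets kept, 8.39% had a higher difference.

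Probe set 1438937_x_at read 10.49, 10.13 and 9.66 in mutants, against 10.46, 10.21 and 10.80 in controls. Mutant 1 lay above control 1 and control 2, so the groups overlapped, and the other mutants lay below all controls. The log2 difference was -0.40 (SE 0.28), or 1.32-fold lower in mutants. Averaged over the 3 Ang probe sets, the difference was -0.61, a value that none of them showed alone.

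Rnase4, the neighbour that shares the start of Ang, was higher in mutants. Its probe set read 12.24, 12.36 and 12.42 in mutants, against 11.45, 11.63 and 11.96 in controls. After rescaling all mutant arrays lay above all control arrays, and the mutants were close together. The deposited signals of Rnase4 were 3339, 5676 and 4304 in mutants and 2855, 4093 and 4485 in controls, which overlapped with a wide mutant spread. The means were 12.34 ± 0.09 in mutants and 11.68 ± 0.26 in controls (SD, n = 3), a log2 difference of 0.66 (SE 0.21), or 1.58-fold higher in mutants. In direction Rnase4 went with 1450717_at of Ang and against 1438936_s_at.

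Rnh1, the inhibitor, was slightly lower in mutants. Its probe set read 8.56, 8.52 and 8.31 in mutants, against 8.93, 9.0 and 8.98 in controls. The groups did not overlap, and the controls were within a very narrow range. The means were 8.46 ± 0.13 in mutants and 8.97 ± 0.03 in controls (SD, n = 3), a log2 difference of -0.50 (SE 0.20), or 1.42-fold lower in mutants. As an _s_at probe set it can also detect related transcripts.

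All 5 probe sets passed the filter on dim signals. By limma, with p-values adjusted (Benjamini-Hochberg) across the whole set kept, 0.0592% of probe sets were lower and 0.0148% higher at an adjusted p under 0.05, which is the background for the gene lists below. Every mutant array lay above every control array for 13.8% of the probe sets kept and below every control for 9.36%, which is the background for the 2 members without overlap in each direction. Because this contrast led to the choice of the genes, nothing is read from these counts, and no call is given for the 5.

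Within a single array, the probe sets can be set against each other without any scaling between arrays. Brightness is not comparable between probe sets, so only the shift between arrays is of interest. The log2 signal of 1438936_s_at minus that of 1450717_at was -1.50, -2.0 and -1.46 on mutant arrays, against 2.72, 1.72 and 1.69 on control arrays. That is a shift of -3.70 between readings of the same gene, without overlap between the groups. Against 1438937_x_at the shift was -2.17, with -0.85 ± 0.07 in mutants and 1.32 ± 0.25 in controls (SD, n = 3).

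Against Rnase4 the shift of 1438936_s_at was -3.23, with -3.10 ± 0.49 in mutants and 0.13 ± 0.43 in controls (SD, n = 3). Beside Rnase4, 1438937_x_at shifted by -1.06 without overlap, with -2.25 ± 0.50 in mutants and -1.19 ± 0.22 in controls (SD, n = 3). The third reading of Ang behaved differently: 1450717_at minus Rnase4 was -1.07, -1.16 and -2.09 in mutants, against -2.11, -1.92 and -1.71 in controls. There the groups overlapped. Rnase4 minus Rnh1 was 3.88 ± 0.22 in mutants and 2.71 ± 0.24 in controls (SD, n = 3). The Rnase4 transcript signal thus stood higher relative to that of Rnh1 in mutants by 1.17 on the log2 scale. For Ang the shift against Rnh1 depended on the probe set: -2.06 for 1438936_s_at, 0.11 for 1438937_x_at and 1.64 for 1450717_at.

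**Figure D2:**
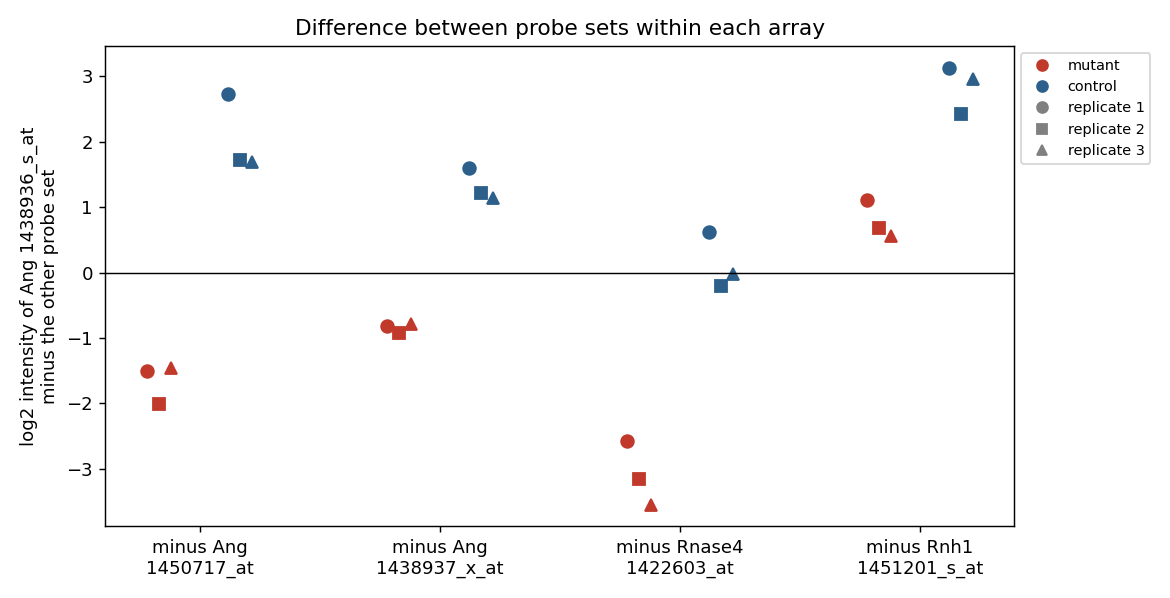
Log2 intensity of Ang probe set 1438936_s_at minus that of each other probe set on the same array (y axis), for mutant arrays (red) and control arrays (blue), with a marker for each replicate. The mutant points lie below the control points in all 4 pairs, and against 1450717_at they lie between -2.0 and -1.46 where controls lie between 1.69 and 2.72.

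Of 5871 genes with more than 1 probe set kept, 99 (1.69%) had at least 1 probe set wholly above and another wholly below the controls. Ang is among them, but the low signal of 1438936_s_at chose it, and on the deposited values 1450717_at overlapped between groups, so nothing is read from its place there.

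Inside the groups, replicate arrays also moved differently by probe set. Mutant 3 was the lowest mutant on all 3 Ang probe sets and on Rnh1, and the highest mutant on Rnase4. Control 3 was the highest control on 1450717_at, 1438937_x_at and Rnase4, and control 1 was the highest on 1438936_s_at.

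RNA quality moved with the groups to a degree. Control probe sets at the 3′ and 5′ ends of a transcript give a ratio that is higher in degraded RNA. For Actb this 3′ over 5′ ratio was 5.33, 2.36 and 2.92 on mutant arrays and 1.91, 1.68 and 2.36 on control arrays (exact permutation test, two-sided, p = 0.2). For Gapdh the ratio averaged 0.882 ± 0.117 in mutants and 0.715 ± 0.0383 in controls (SD, n = 3; exact permutation p = 0.1, the lowest possible with 3 arrays a group), and for Pcx 11.4 ± 5.51 in mutants and 5.47 ± 1.37 in controls (SD, n = 3; exact permutation p = 0.2). With the mean log2 ratio as a covariate, the difference was -2.97 for 1438936_s_at, 0.91 for 1450717_at, -0.79 for 1438937_x_at, 0.64 for Rnase4 and -0.54 for Rnh1. The ratio moved with the groups, so this fit cannot separate RNA quality from genotype. The part of RNA quality in these differences was not tested.

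**Figure D3:**
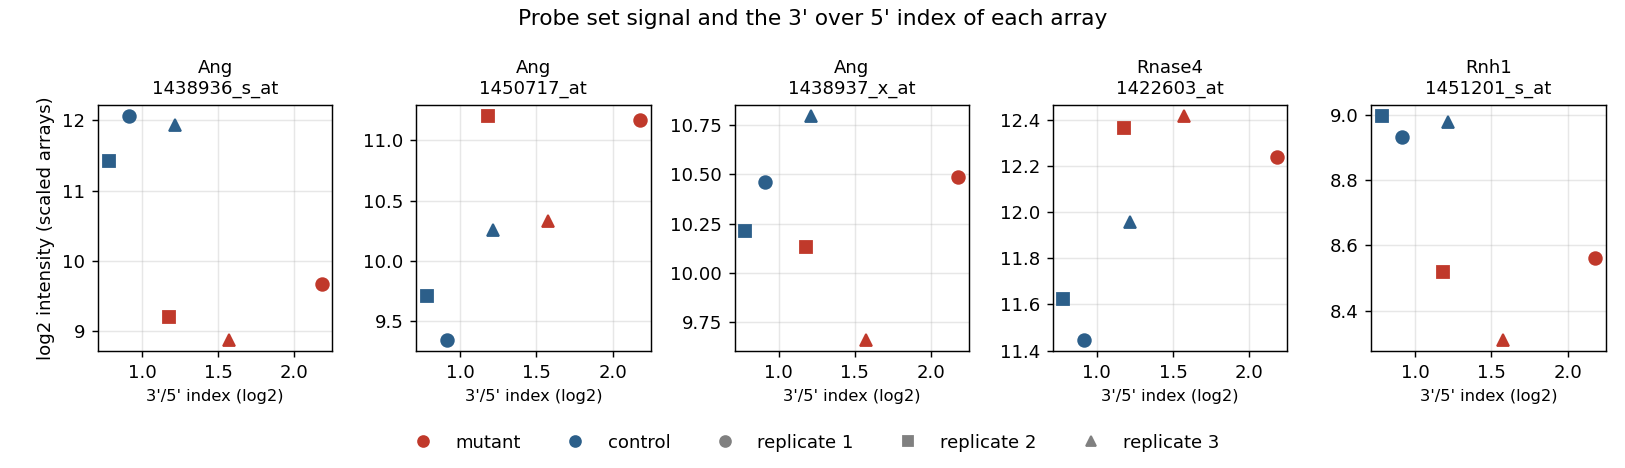
Log2 intensity of each probe set (y axis) against the mean log2 ratio of 3′ to 5′ control probe sets on the same array (x axis), for mutant arrays (red) and control arrays (blue), with a marker for each replicate. The index runs from 1.18 to 2.18 on mutant arrays and from 0.781 to 1.22 on control arrays.

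The differences kept their sign under 16 other settings for all 5 probe sets. These covered scaling, filtering, the floor, the variance model, the quality covariate, the replicate block and the omission of each array in turn. The filters, the floor of 16, the variance model and the block cannot move the differences of these bright probe sets. Of the remaining settings, leaving out an array or adding an offset before log2 could turn a sign only for 1438937_x_at, whose groups overlapped. On the other probe sets the groups did not overlap. Their signs could turn only under the deposited scaling, quantile normalization, median centring or the quality covariate. The differences ranged from -3.02 to -2.38 for 1438936_s_at, 0.68 to 1.42 for 1450717_at and -0.85 to -0.18 for 1438937_x_at. Rnase4 ranged from 0.21 to 0.80 and Rnh1 from -0.95 to -0.43. On the deposited scaling the median of all probe sets kept was -0.37 in place of 0.08, and Rnase4, at 0.21, was still above that median.

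**Figure D4:**
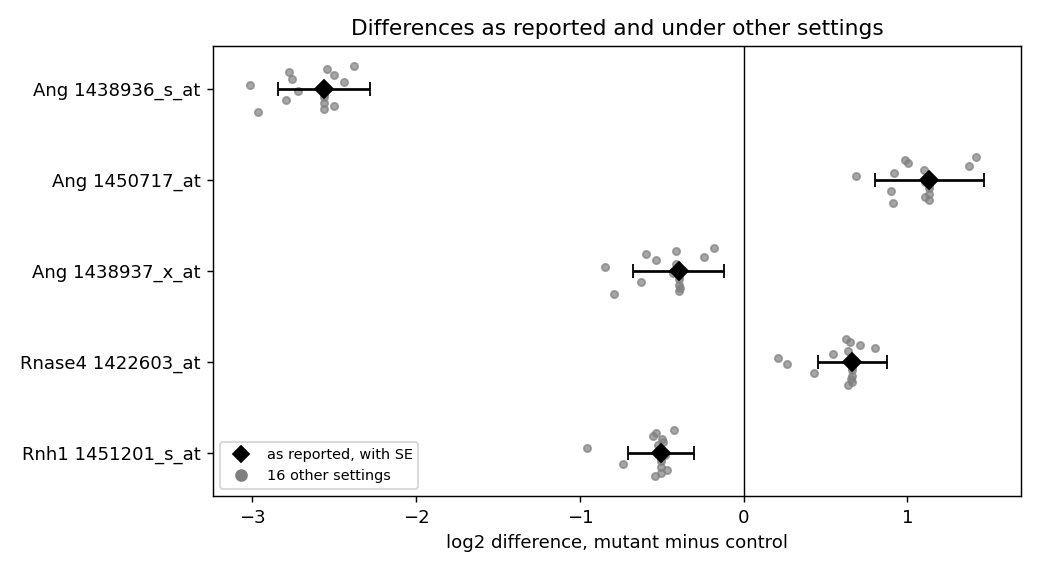
Log2 difference of mutant minus control (x axis) for the 5 probe sets as reported (black diamond, bar for SE) and under 16 other settings (grey points). All points of a probe set lie on the same side of 0, and the Ang probe sets 1438936_s_at and 1450717_at lie on opposite sides. Settings of filter, floor, variance model and block cannot move these points. Leaving out an array or adding an offset before log2 cannot turn the sign of a probe set whose groups did not overlap.

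Relatives of Ang were near the detection limit. Of 20 other genes of the ribonuclease A family, 9 had a probe set and 6 passed the filter, and 7 of the 9 lay below the background estimate in both groups (mean log2 signals of 3.04 in mutants and 2.87 in controls). None was called in limma, and none had an unadjusted p under 0.05. The median log2 difference was 0.39 over the 6, beside 0.08 over all probe sets kept. That median was 0.12 after quantile normalization, beside 0.02, and 0.13 with the quality ratio as a covariate, beside 0.12. Without control 1 it was 0.55, beside 0.08. The pancreatic-type ribonuclease Rnase1 read 3.58, 2.56 and 3.86 in mutants, against 2.24, 2.20 and 1.65 in controls (log2 difference 1.30, SE 0.57, adjusted p = 0.364 in limma). The angiogenin paralog Ang4, known from intestinal Paneth cells, averaged 2.57 ± 0.60 in mutants and 2.26 ± 0.72 in controls (SD, n = 3), below background in both. All 4 eosinophil markers were below background in both groups, and so was the ribonuclease Rnase6.

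None of the receptors and binding partners of angiogenin passed the test. Of 12 genes, 2 lay below background in both groups and 11 passed the filter, 5 with a positive and 6 with a negative difference and a median of -0.14, beside 0.08 over all probe sets kept. The sign of that median turned to 0.11 without control 2, and it was -0.61 without control 1 and 0.05 with the quality ratio as a covariate. At an unadjusted p under 0.05, 1 was higher and 4 were lower (limma), beside 7.6% higher and 6.18% lower over all probe sets kept. The plexin receptor Plxnb2 read 6.51, 8.22 and 7.87 in mutants, against 8.18, 8.20 and 8.60 in controls, with overlap (log2 difference -0.79, SE 0.43, adjusted p = 0.414 in limma). The growth factor receptor Egfr, reported to bind human angiogenin, read 8.78, 7.13 and 8.15 in mutants, against 9.96, 9.91 and 8.89 in controls, without overlap (log2 difference -1.57, SE 0.46, adjusted p = 0.294).

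Among partners, cytoplasmic actin, Actb, which binds angiogenin at the cell surface, had a log2 difference of -1.05 (SE 0.22, adjusted p = 0.182 in limma), and the membrane-binding protein Anxa2 -1.39 (SE 0.50, adjusted p = 0.331). Without mutant 2 both were lower by limma, in a setting where 422 probe sets were lower and 154 higher, in place of 16 and 4. Neither was called when any other array was left out. Follistatin, Fst, a secreted activin inhibitor, read 8.54, 6.05 and 6.37 in mutants, against 5.0, 4.26 and 3.41 in controls (log2 difference 2.76, SE 0.68, adjusted p = 0.248). Elastin, Eln, a matrix protein, had -1.05 (SE 0.44, adjusted p = 0.359). Plasminogen, Plg, the liver-made precursor of plasmin, averaged 12.53 ± 0.21 in mutants and 12.35 ± 0.12 in controls (SD, n = 3).

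**Figure D5:**
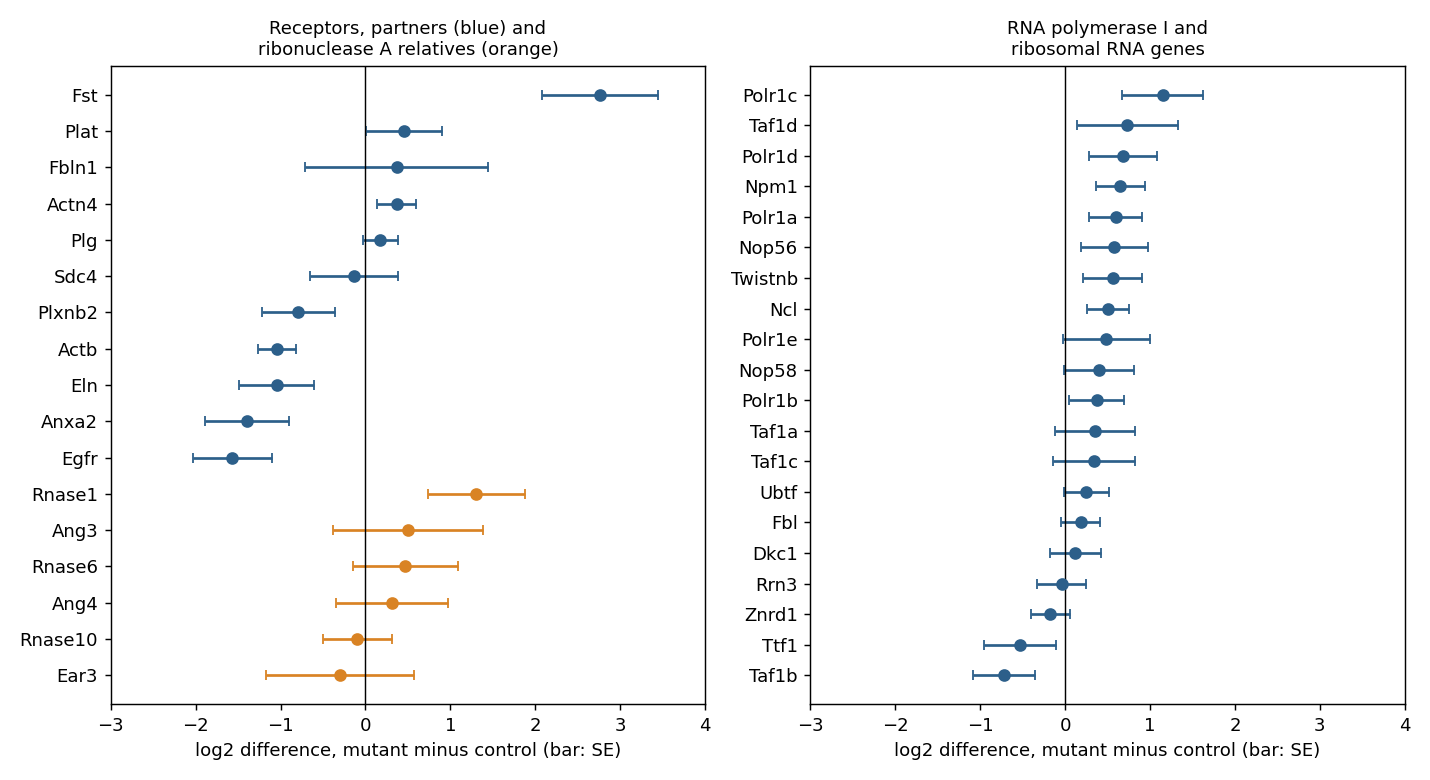
Log2 difference of mutant minus control (x axis, bar for SE) for angiogenin receptors and partners (blue, left panel), other ribonuclease A family genes (orange, left panel) and genes of RNA polymerase I and ribosomal RNA (right panel). None passed the test over all probe sets, and 16 of 20 genes in the right panel are positive on this scaling, with a list median of 0.39 that is -0.06 on the deposited scaling.

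Processes that angiogenin acts on were followed through 2 further lists. For RNA polymerase I and ribosomal RNA, 20 of 20 genes passed the filter, 16 had a positive difference beside 54.8% of all probe sets kept, none was called and 1 was higher at an unadjusted p under 0.05 (limma), beside 7.6% of all. Their median log2 difference was 0.39, beside 0.08 over all probe sets kept. It was -0.06 on the deposited scaling, beside -0.37, and -0.11 with the quality ratio as a covariate, beside 0.12. Leaving out mutant 1 brought it to 0.12, beside 0.10, and leaving out mutant 2 to 0.69, beside 0.12. The member with that p was the polymerase subunit Polr1c, at 9.35, 7.43 and 7.86 in mutants, against 6.67, 7.28 and 7.25 in controls (adjusted p = 0.358). Nucleophosmin, Npm1, a nucleolar protein, had a log2 difference of 0.65 (SE 0.29, adjusted p = 0.366).

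Of 14 genes listed as linked to transfer RNA protection or stress granules, 13 passed the filter. None was called and none had an unadjusted p under 0.05 (limma), and the median was 0.13, beside 0.08 over all probe sets kept. The interferon-induced kinase Eif2ak2 had a log2 difference of -0.95 (SE 0.45, adjusted p = 0.382 in limma). Trdmt1, a methyltransferase that shields transfer RNAs from angiogenin, had -0.46 (SE 0.42) and the stress granule protein Tial1 0.70 (SE 0.33), with adjusted p of 0.599 and 0.381 in limma.

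Other ribonucleases were measured for comparison. Of 23 genes, 21 passed the filter, none was called, 2 were lower at an unadjusted p under 0.05 (limma), beside 6.18% of all probe sets kept, and the median was 0.09, beside 0.08 over all probe sets kept. Those 2 were Ern1, the stress sensor of the endoplasmic reticulum with a ribonuclease domain, at -1.11 (SE 0.38, adjusted p = 0.326), and the lysosomal ribonuclease Rnaset2a, whose mutant mean lay below background. Of 3 factors reported to regulate the Ang and Rnase4 locus, Ctcf alone was measured here and had 0.11 (SE 0.22, adjusted p = 0.829).

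The genes most like each member were taken by Pearson correlation of log2 signal over the 6 arrays, among 13141 genes. The 2 groups account for much of such a correlation, so it is a description. Closest to Ang 1438936_s_at were Crot (r = 0.986), a peroxisomal carnitine acyltransferase, the glucuronosyltransferase Ugt2a3 (r = 0.986), the endothelial guidance receptor Robo4 (r = 0.981), the retinol dehydrogenase family member Rdh16f2 (r = 0.980) and the replication factor Rpa1 (r = 0.978). Their log2 differences were -0.97, -2.48, -0.63, -1.55 and -0.66 in that order. Closest to Rnase4 were the synaptic vesicle protein Sv2a (r = 0.998), whose control mean lay below background, the ephrin Efnb2 (r = 0.992) and the vesicle transport GTPase Rab13 (r = 0.991). Closest to Rnh1 were Klhl22 (r = 0.997), a ubiquitin ligase adaptor, Clptm1l (r = 0.988) and the mitochondrial ribosomal protein Mrpl22 (r = 0.983), with log2 differences of -0.41, -0.67 and -0.51.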

How the data were processed

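Liver RNA of 6 mice was measured on Affymetrix arrays. The authors' deposited table holds 1 linear intensity per probe set and array. Signals came from GCOS, per the submitters' processing notes, with algorithm and scaling not given in the sources used here. Symbols came from the platform annotation and were updated through RefSeq for 34741 probe sets. Arrays were multiplied to a common mean (2% trimmed at each end), a floor of 1 was set, log2 was taken, 64 control probe sets were removed and the lower 40% by mean log2 left out, which kept 27022 probe sets. Mutants and controls were compared with lmFit and eBayes (limma 3.58.1, R 4.3.3) with a variance trend, two-sided, with Benjamini-Hochberg adjustment and a threshold of 0.05. The step was tested on simulated data. A listed gene is its brightest kept probe set. Background is the 95th percentile of 83 olfactory, vomeronasal and taste receptor probe sets. The number of arrays limits precision, and no batch or scan date was given. Named genes are every probe set of the 3 genes, up to 4 members of each list with the smallest p, any receptor, partner or regulator kept, and the 5, 3 and 3 genes most correlated with the brightest probe set of Ang, Rnase4 and Rnh1. Members and lists were chosen with earlier results of these data known. Promoter windows are from RefSeq (GRCm38.p6). No genome build is named for the arrays.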

Additional observations from a re-analysis of the deposited data

How the results depend on the processing

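The direction of Ang depended on the probe set: 1450717_at in place of 1438936_s_at gave 1.13 in place of -2.56, 1438937_x_at gave -0.40 and the mean over all 3 gave -0.61, alternatives added after the data were seen; the cause was not tested. On the deposited scaling Ang, Rnase4 and Rnh1 had -3.02, 0.21 and -0.95. Rnase4 had 0.26 after quantile normalization and 0.43 after median centring, where Rnh1 had -0.74, and Ang had -2.97 with the 3′ over 5′ ratio as a covariate. Over all probe sets, 4 were higher and 16 lower, with 2054 and 1671 at an unadjusted p under 0.05 (limma). The deposited scaling gave 32 lower. Without the filter, or with a floor of 16, there were 0 in either direction, with the lower 60% left out 2 higher and 9 lower, after log2(signal + 32) 9 and 98, without the variance trend 1 and 8, and with the covariate 0 and 5. Leaving out mutant 1, 2 or 3 gave 15 higher and 111 lower, 154 and 422, and 2 and 6; leaving out control 1, 2 or 3 gave 0 and 4, 0 and 2, and 0 and 3. The partner list had between 0 and 2 calls when arrays were left out in turn, and the 5 other lists had 0 in every setting run. The replicate numbers did not pair the samples (correlations of deviations -0.04, 0.02 and 0.04), and with the replicate block 3 were higher and 19 lower over all probe sets; the differences of the 3 genes cannot move under a block in this balanced design. With 3 arrays a group, signals near background could not be separated.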
